A study of Saccharomyces cerevisiae with 6 samples.

Results

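The meiosis and sporulation genes described here are 32 named genes of budding yeast, and all 32 of the 32 were measured, each by 1 probe set, among 5449 Saccharomyces cerevisiae genes tested on 5498 probe sets. They were chosen by gene name through the annotation of the array platform, and fall into 6 regulators and kinases, 16 genes of recombination and meiotic chromosomes and 10 genes of spore formation. By the labels, the arrays compared 3 cultures of a wild-type diploid with 3 cultures of a homozygous diploid lacking PUN1. The background of both is Σ1278b, which grows as filaments when nitrogen is short. Both strains carried the same treatment, growth in rich glucose medium at 30 °C to an OD600 of 0.6, a wash, and 6 h in low-nitrogen SLAD medium with 2% glucose. The labels name biological replicates of each strain and no clone number, so the number of isolates behind the deletion cultures is unknown.

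Budding yeast enters meiosis as an a/alpha diploid that lacks nitrogen and a fermentable carbon source, and glucose is a known repressor of the entry. Ime1, a transcription factor, turns on the early genes, the kinase Ime2 carries the programme forward, and Ndt80 turns on the middle genes that drive the meiotic divisions and the building of spores. Early genes serve the breaking, pairing and exchange of homologous chromosomes, and later genes build the prospore membrane and the spore wall. In a/alpha cells the a1-alpha2 repressor, which is encoded at the mating-type locus, silences RME1, a repressor of IME1, and allows IME4, which promotes entry.

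Values are the deposited log2 probe set values, and a difference is deletion minus wild type on that scale. Each probe set was tested with limma, and a gene is said to have risen or fallen where the p-value adjusted over all 5498 tested probe sets was under 0.05. Of these probe sets 15.8% rose and 9.82% fell. Background was read from 1746 probe sets for Schizosaccharomyces pombe, a distant yeast carried on the same array, as their 95th percentile on each array (5.67 to 5.74). Medians of the tested probe sets lay at 10.85 to 10.91 on the 6 arrays, and arrays of a group correlated at 0.996 to 0.999 across probe sets. The 25S ribosomal RNA control stood high on wild-type replicate 1 (12.8) and deletion replicates 2 and 3 (11.3 and 12.5), against 8.85 to 9.07 on the other arrays. Leaving out those 3 arrays leaves replicate 1 as the only deletion array, so calls of that fit rest on 1 deletion culture. Precision is set by the number of arrays, 3 in each group. In such bulk RNA fewer cells expressing a gene cannot be told apart from less RNA per cell.

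PUN1, the deleted gene, read 13.35, 13.50 and 13.55 on the wild-type arrays, in the order of replicates 1, 2 and 3 kept throughout, and 8.33, 4.83 and 4.93 in the deletion. Deletion replicate 1 held 2.85% of the mean of wild type, above its background, and the other deletion arrays stood below theirs. The mating-type genes went against an a/alpha state in the arrays labelled pun1 deletion. HMRA1, which encodes a1, read 9.05, 8.82 and 9.42 on the wild-type arrays and 4.43, 3.98 and 4.34 on the deletion arrays, all below background, so that it was at least 10.7-fold lower (adjusted p = 6.75e-06). HMLALPHA1, which encodes the alpha1 activator, rose by 5.29, MF(ALPHA)1, the alpha-factor gene, by 7.93, and FUS3, a kinase of the mating pathway, by 6.33, the last 2 from wild-type levels close to background. The probe sets of HMRA1 and HMLALPHA1 cannot tell the silent copies from those at the mating-type locus, whose sequence is the same. Of 19 measured mating-type and haploid markers, 11 rose, 2 fell, namely HMRA1 and IME4, and 6 did not pass. Among all tested probe sets 15.8% rose and 9.82% fell. After quantile normalization 11 rose and 6 fell, beside 12.7% higher and 13.8% lower among all tested probe sets. The added falls were the a-cell markers MFA2 (-0.61), STE6 (-0.22), BAR1 (-0.42) and AGA2 (-0.57). Without wild-type replicate 1 the falls numbered 4, and without the 3 arrays of high 25S signal 5. The summed level of the 4 alpha-cell markers, MF(ALPHA)1, MF(ALPHA)2, STE3 and SAG1, lay at 10.19 to 10.42 on the wild-type arrays and 15.26 to 15.37 on the deletion arrays. For the 6 haploid-cell markers, FUS3, GPA1, STE4, STE18, HO and RME1, it lay at 10.65 to 10.68 and 14.39 to 14.41. The 6 a-cell markers, MFA1, MFA2, STE2, STE6, BAR1 and AGA2, summed to 9.71 to 9.92 and 9.53 to 9.74, and each of the 6 had values above background on all arrays in the deposited scale. The loss of PUN1 and this difference in mating-type genes fall on the same arrays and cannot be told apart in any result given here.

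The 2 regulators that link mating type to meiosis moved strongly. Both are among the mating-type and haploid markers counted above, and RME1 is part of the haploid-cell sum. Their values are therefore not a result separate from those markers. RME1, the repressor of IME1 that a1-alpha2 silences, read 9.23, 9.29 and 9.29 on the wild-type arrays and 11.49, 11.65 and 11.60 on the deletion arrays, a rise of 2.31 (SE 0.05, 4.94-fold, adjusted p = 6.11e-07). IME4, whose RNA methyltransferase promotes entry into meiosis, read 9.39, 9.24 and 9.17 in wild type and 5.90, 5.70 and 5.69 in the deletion, a fall with a difference of -3.50 (SE 0.08, adjusted p = 6.11e-07). The deletion values of IME4 lay close to background, so the size of that fall rests partly on background. The groups did not overlap for either gene.

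**Figure D1:**
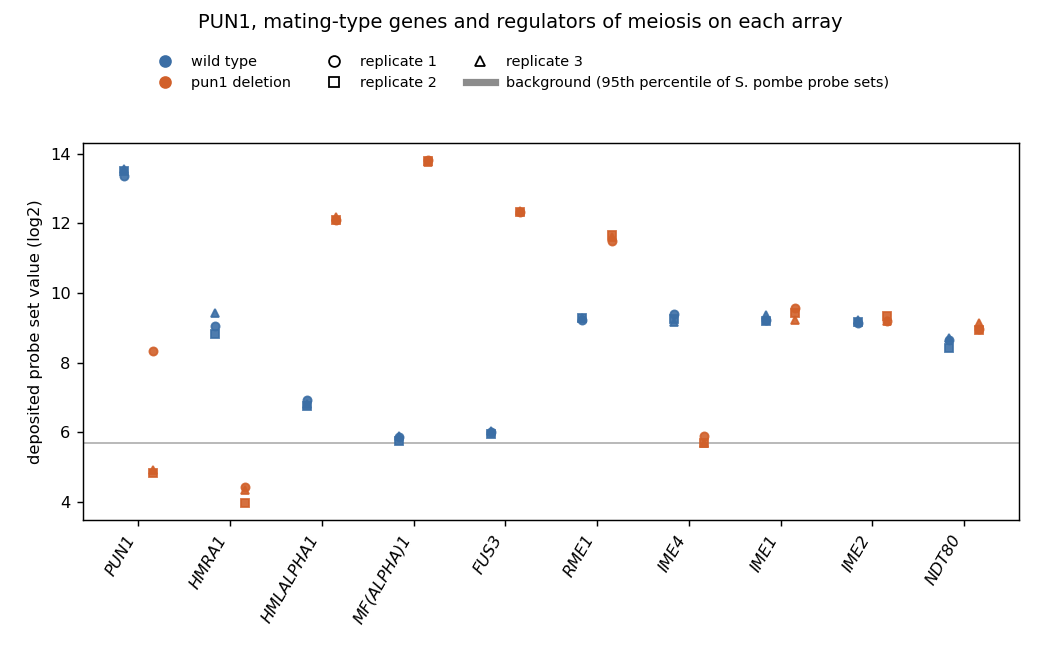
Deposited log2 values (vertical axis) of PUN1, mating-type genes and regulators of meiosis on the 3 wild-type (blue) and 3 deletion (orange) arrays, each symbol 1 array and the grey band the range of the array backgrounds (5.67 to 5.74). RME1 and IME4 separate the groups in opposite directions, while IME1 and IME2 overlap between them.

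Among all 32 members, 11 rose, 2 fell and 19 did not pass the test, which is 34.4% higher and 6.25% lower, against 15.8% and 9.82% of all tested probe sets. The median difference of the members was 0.26, against 0.02 over all tested probe sets. Of 1044 tested probe sets whose mean lay within the members' range of 3.81 to 9.34, 24.2% rose and 7.47% fell, with a median of 0.09. The members were not matched in level within that range. By mean level, the share of tested probe sets that rose was 14.5% under 6, 31.4% from 6 to 8 and 19.9% from 8 to 10. For 22 of the 32 members the mean of at least 1 group lay above background, against 97% of all tested probe sets. For 20 members the means of both groups did, and 9 members were below background on all 6 arrays. Of the 11 members that rose, 8 lay above background and 3, HOP2, ZIP2 and SPR28, were below it on every array. The count depended on scaling: after a further quantile normalization over the tested probe sets, 6 members rose and 5 fell, and the median of the members was 0.08. Over all tested probe sets that normalization gave 12.7% higher and 13.8% lower, in place of 15.8% and 9.82%, and in the members' range of levels 14.4% higher and 18.8% lower, in place of 24.2% and 7.47%. Median centring of each array left 11 members higher and 3 lower, beside 12.8% higher and 12.9% lower over all tested probe sets. The values of the 2 groups did not overlap for 14 members higher in the deletion arrays and 4 lower, against 26.7% and 18.1% of all tested probe sets.

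**Figure D2:**
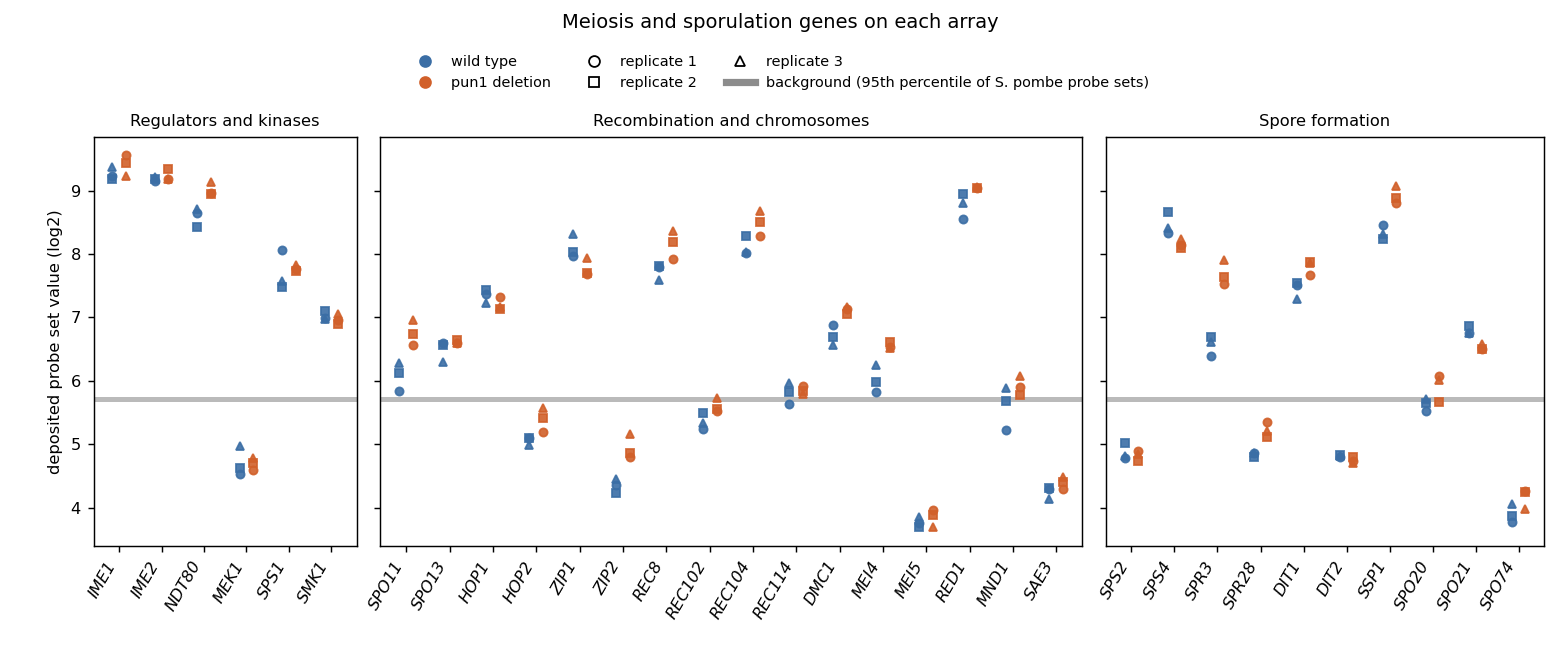
Deposited log2 values (vertical axis) of the 32 members in their 3 groups on the wild-type (blue) and deletion (orange) arrays, with replicates as symbols and the array backgrounds (5.67 to 5.74) as a grey band. For 10 members no group mean lies above background, and SPR3 shows the widest gap between groups.

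Of the 6 regulators and kinases 1 rose, none fell at the threshold and 5 did not pass, with a median difference of 0.07 (-0.04 after quantile normalization, with none higher and 1 lower). The share that rose was 16.7%, beside 15.8% of all tested probe sets and 24.2% of those in the members' range of levels. Quantile normalization gave 12.7% higher and 13.8% lower over all tested probe sets. IME1 (YJR094C), the master activator of meiotic entry, read 9.23, 9.19 and 9.38 in wild type and 9.56, 9.43 and 9.23 in the deletion. The groups overlapped, and the difference of 0.14 did not pass (95% interval -0.08 to 0.36, adjusted p = 0.299), in the same arrays in which RME1 rose by 2.31. IME2 (YJL106W), the kinase that acts after Ime1, read 9.15, 9.18 and 9.22 in wild type and 9.19, 9.34 and 9.19 in the deletion. It too overlapped, with a difference of 0.06 (95% interval -0.07 to 0.19, adjusted p = 0.47). For both genes the interval holds 0 and leaves out changes beyond 0.36 in either direction.

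NDT80 (YHR124W), the activator of middle meiotic genes, was the 1 regulator of the 6 that rose. Its values were 8.64, 8.42 and 8.71 on the wild-type arrays and 8.97, 8.95 and 9.13 on the deletion arrays. Every deletion array lay above every wild-type array, with a difference of 0.43 (SE 0.09, 1.34-fold, adjusted p = 0.0139). NDT80 passed with each array left out in turn (adjusted p 0.0205 to 0.049) and missed the threshold after quantile normalization (0.31, adjusted p = 0.0541) and without the 3 arrays of high 25S signal (0.41, adjusted p = 0.0764).

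The other kinases did not pass. SPS1 (YDR523C), a kinase needed to close the prospore membrane, read 8.06, 7.48 and 7.58 in wild type and 7.76, 7.74 and 7.83 in the deletion, a difference of 0.07 (adjusted p = 0.745). Its wild-type replicate 1 stood above all other arrays, and without that array SPS1 passed as higher by 0.25 (adjusted p = 0.0225). SMK1 (YPR054W), the mitogen-activated kinase of spore wall assembly, read 6.99, 7.10 and 6.98 in wild type and 6.96, 6.89 and 7.06 in the deletion with overlapping groups and a difference of -0.05 (adjusted p = 0.536). After quantile normalization SMK1 passed as lower (-0.30, adjusted p = 0.011). MEK1 (YOR351C), which directs repair of meiotic breaks to the homologous chromosome, was below background on every array, at 4.53 to 4.97.

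Genes for making and repairing meiotic breaks, for pairing and for the first division are 16 of the 32 members. Of these 6 rose, none fell at the threshold and 10 did not pass. The share that rose was 37.5%, beside 15.8% of all tested probe sets and 24.2% of those in the members' range of levels. In those 2 sets 9.82% and 7.47% fell. Of the 6 that rose, 4 had a group mean above background. The 16 had a median difference of 0.30 (0.14 after quantile normalization, with 3 higher and 2 lower). That normalization gave 12.7% higher and 13.8% lower over all tested probe sets. Without deletion replicate 3 the number that rose was 3, and with replicate number as a block 5 rose and 1, ZIP1, fell. SPO11 (YHL022C), the enzyme that cuts the DNA, read 5.84, 6.12 and 6.28 on the wild-type arrays and 6.57, 6.74 and 6.96 on the deletion arrays. All deletion values exceeded all wild-type values, and the lowest wild-type value stood just above its array's background of 5.74. The difference was 0.68 (SE 0.14, 1.60-fold, adjusted p = 0.0134). It held after quantile normalization at 0.44 (adjusted p = 0.0247) and was 0.37 without the 3 arrays of high 25S signal (adjusted p = 0.0469).

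The genes of 4 proteins that work with Spo11 follow, and differences between them were not tested. MEI4 (YER044C-A), an accessory factor of break formation, read 5.83, 5.98 and 6.25 in wild type and 6.54, 6.62 and 6.52 in the deletion, without overlap. It rose by 0.54 (SE 0.10, 1.45-fold, adjusted p = 0.0108), and by 0.33 after quantile normalization (adjusted p = 0.047). REC104 (YHR157W), a further accessory factor, read 8.01, 8.28 and 8.03 in wild type and 8.28, 8.51 and 8.68 in the deletion. Wild-type replicate 2 and deletion replicate 1 were equal to 2 decimals. The groups did not overlap, and REC104 missed the threshold at 0.39 (SE 0.12, adjusted p = 0.0504), passing with replicate number as a block (adjusted p = 0.035). REC114 (YMR133W), a partner of Mei4, read 5.63, 5.82 and 5.96 in wild type and 5.92, 5.84 and 5.80 in the deletion, close to background and overlapping, and did not pass (0.05, adjusted p = 0.704). REC102 (YLR329W), the partner of Rec104, was above background on deletion replicate 3 alone, at 5.73, and did not pass (adjusted p = 0.0683).

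Further members encode the chromosome axis and the synaptonemal complex, the structure that joins paired homologues. REC8 (YPR007C), the meiotic cohesin subunit, read 7.80, 7.81 and 7.59 in wild type and 7.92, 8.19 and 8.36 in the deletion. Its groups did not overlap, and it rose by 0.42 (SE 0.12, 1.34-fold, adjusted p = 0.0402). That call held without deletion replicate 1 (adjusted p = 0.0112) and was lost without any other array (up to 0.118), after quantile normalization (0.22, adjusted p = 0.176) and with replicate number as a block (adjusted p = 0.0619). RED1 (YLR263W), an axis protein, read 8.55, 8.94 and 8.81 in wild type and 9.04, 9.04 and 9.06 in the deletion, higher on every deletion array, and did not pass (0.28, adjusted p = 0.0725). HOP1 (YIL072W), the axis protein that partners Red1, read 7.37, 7.43 and 7.23 in wild type and 7.33, 7.13 and 7.17 in the deletion, with overlap and a difference of -0.13 (adjusted p = 0.223). ZIP1 (YDR285W), the central filament of the complex, read 7.97, 8.03 and 8.31 in wild type and 7.69, 7.70 and 7.93 in the deletion, and each deletion value was under the lowest of wild type. Its difference of -0.33 did not pass (SE 0.11, adjusted p = 0.0611), but passed as lower with replicate number as a block (adjusted p = 0.00651). After quantile normalization both ZIP1 (-0.57, adjusted p = 0.00488) and HOP1 (-0.40, adjusted p = 0.0167) passed as lower. ZIP2 (YGL249W), which starts synapsis, was below background throughout, at 4.36, 4.24 and 4.46 in wild type and 4.80, 4.86 and 5.17 in the deletion. It passed the test as higher (adjusted p = 0.00892), but no fold is given where both groups lie below background.

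Among the strand-exchange proteins, DMC1 (YER179W), the meiotic recombinase, read 6.88, 6.69 and 6.56 on the wild-type arrays and 7.13, 7.05 and 7.16 on the deletion arrays. The groups were separate, and DMC1 rose by 0.40 (SE 0.08, 1.32-fold, adjusted p = 0.0149). The call was lost after quantile normalization (0.09, adjusted p = 0.543) and when wild-type replicate 2 or replicate 3 of the deletion was left out (highest adjusted p = 0.0569). HOP2 (YGL033W), which ensures pairing with the right partner, was below background on all arrays, at 5.10, 5.10 and 4.99 in wild type and 5.20, 5.41 and 5.58 in the deletion. HOP2 passed as higher (adjusted p = 0.0419), a call lost with replicate number as a block (adjusted p = 0.0588), after quantile normalization (adjusted p = 0.212) and without any array but deletion replicate 1 (up to 0.121). MND1 (YGL183C), the partner of Hop2, read 5.23, 5.69 and 5.88 in wild type and 5.90, 5.78 and 6.07 in the deletion, with overlap, and did not pass (0.31, adjusted p = 0.213). MEI5 and SAE3, which load Dmc1 onto DNA, were below background on every array, at 3.69 to 3.96 and 4.14 to 4.49. SPO13 (YHR014W), which keeps sister kinetochores together in the first division, read 6.59, 6.56 and 6.29 in wild type and 6.59, 6.64 and 6.60 in the deletion, overlapping, and did not pass (0.13, adjusted p = 0.287).

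**Figure D3:**
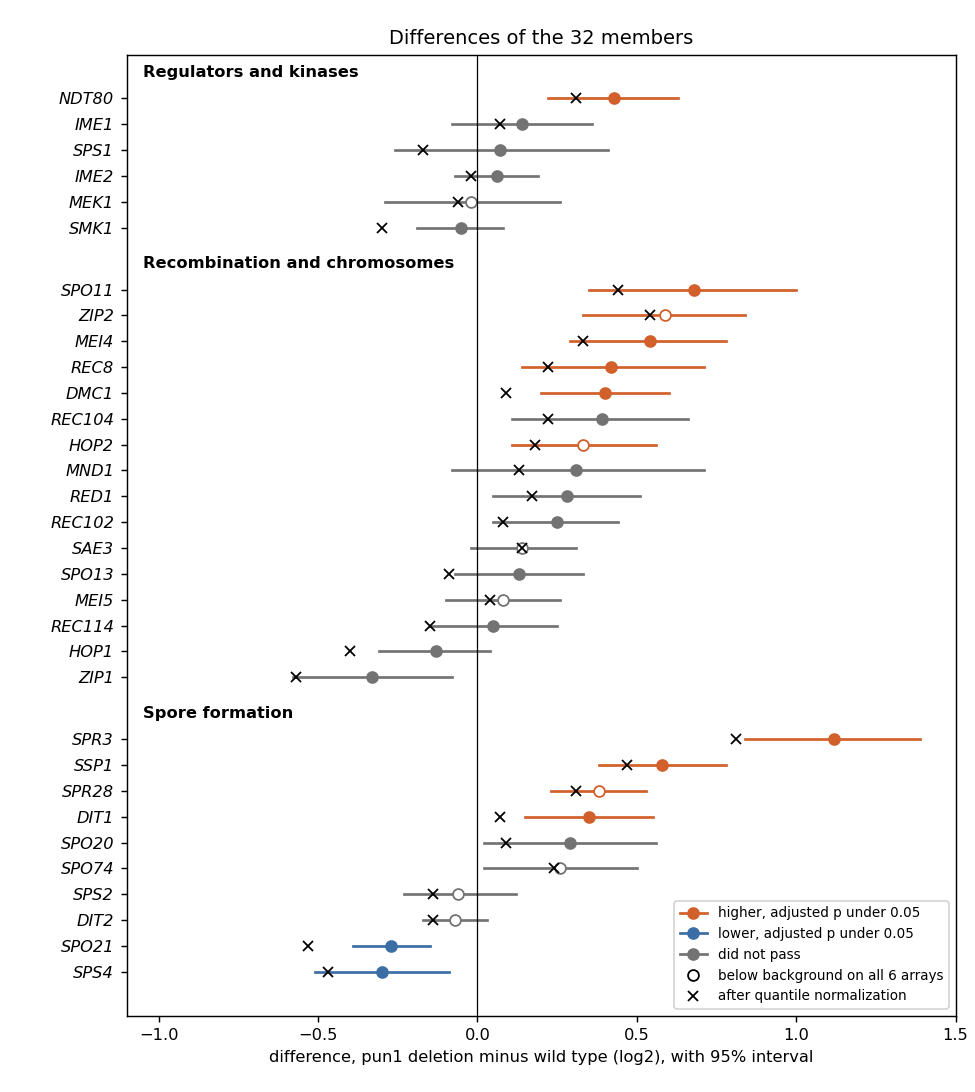
Difference of each member, deletion minus wild type (log2, horizontal axis), with its 95% interval, coloured by call; open circles are members below background on all 6 arrays and crosses the difference after quantile normalization. SPR3 lies farthest to the right at 1.12, and the crosses lie to the left of most circles.

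Of the 10 spore formation genes 4 rose, 2 fell and 4 did not pass. These shares, 40% higher and 20% lower, stand beside 15.8% and 9.82% of all tested probe sets. Among probe sets in the members' range of levels the shares were 24.2% and 7.47%. With replicate number as a block 1 of the 10 fell, since SPS4 was lost, and both SPS4 (-0.38, adjusted p = 0.0751) and SPO21 missed the threshold without the 3 arrays of high 25S signal. The group had a median difference of 0.28 (0.08 after quantile normalization, with 3 higher and 2 lower). That normalization gave 12.7% higher and 13.8% lower over all tested probe sets. SPR3 (YGR059W), a septin made during sporulation, read 6.40, 6.69 and 6.62 in wild type and 7.52, 7.64 and 7.91 in the deletion. Means were 6.57 ± 0.15 and 7.69 ± 0.20 (SD, n = 3 arrays each), without overlap, and SPR3 rose by 1.12 (SE 0.12, 2.17-fold, adjusted p = 0.000943). It passed with each array left out in turn (adjusted p 0.00188 to 0.00614), after quantile normalization (0.81, adjusted p = 0.00219) and without the 3 arrays of high 25S signal (0.87, adjusted p = 0.000947). SPR28 (YDR218C), its septin relative, was below background on all arrays, at 4.87, 4.80 and 4.87 in wild type and 5.35, 5.12 and 5.21 in the deletion. SPR28 passed as higher (adjusted p = 0.00625) without a fold that can be given.

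SSP1 (YHR184W), a protein of the leading edge of the prospore membrane, read 8.46, 8.24 and 8.32 in wild type and 8.80, 8.89 and 9.07 in the deletion. All deletion values exceeded all wild-type values, a rise of 0.58 (SE 0.08, 1.49-fold, adjusted p = 0.00374) that was 0.47 after quantile normalization (adjusted p = 0.0116). DIT1 (YDR403W), the first enzyme of dityrosine synthesis for the outer spore wall, read 7.51, 7.54 and 7.29 in wild type and 7.67, 7.87 and 7.86 in the deletion, without overlap. It rose by 0.35 (SE 0.08, 1.27-fold, adjusted p = 0.0251), a call lost after quantile normalization (0.07, adjusted p = 0.55) and when wild-type replicate 3 or either of replicates 2 and 3 of the deletion was left out (up to 0.0887). DIT2, the next enzyme and the adjacent gene, was below background on every array, at 4.70 to 4.83.

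SPO21 (YOL091W) encodes a subunit of the spindle pole body plaque on which the prospore membrane starts. It read 6.75, 6.87 and 6.76 in wild type and 6.50, 6.51 and 6.58 in the deletion. It was lower on every deletion array and fell by 0.27 on the log2 scale (SE 0.05, adjusted p = 0.0102), with a difference of -0.53 after quantile normalization (adjusted p = 0.000237). SPO74, a further plaque protein, was below background on all arrays, at 3.78 to 4.26. MPC54, a plaque subunit outside the 32, read 5.80, 5.57 and 5.94 in wild type and 6.87, 6.90 and 6.90 in the deletion and rose by 1.12 (SE 0.09, adjusted p = 0.000339), with wild-type replicate 2 below background. ADY4, a further plaque gene outside the 32 that was named after its value was seen, did not pass (0.13, adjusted p = 0.385).

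SPS4 (YOR313C), a gene induced during sporulation, was the other member that fell. Its values were 8.33, 8.66 and 8.41 in wild type and 8.15, 8.10 and 8.23 in the deletion, without overlap. The difference was -0.30 (SE 0.09, adjusted p = 0.0472). The call was lost without any array but wild-type replicate 1 (up to 0.146) and with replicate number as a block (adjusted p = 0.0602), and after quantile normalization the difference was -0.47 (adjusted p = 0.00376). SPO20 (YMR017W), a membrane fusion protein of the prospore membrane, read 5.53, 5.65 and 5.71 in wild type and 6.08, 5.66 and 6.02 in the deletion. Its groups overlapped around background and it did not pass (0.29, adjusted p = 0.11). SPS2, a wall protein gene of the middle class, was below background on every array, at 4.73 to 5.02.

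**Figure D4:**
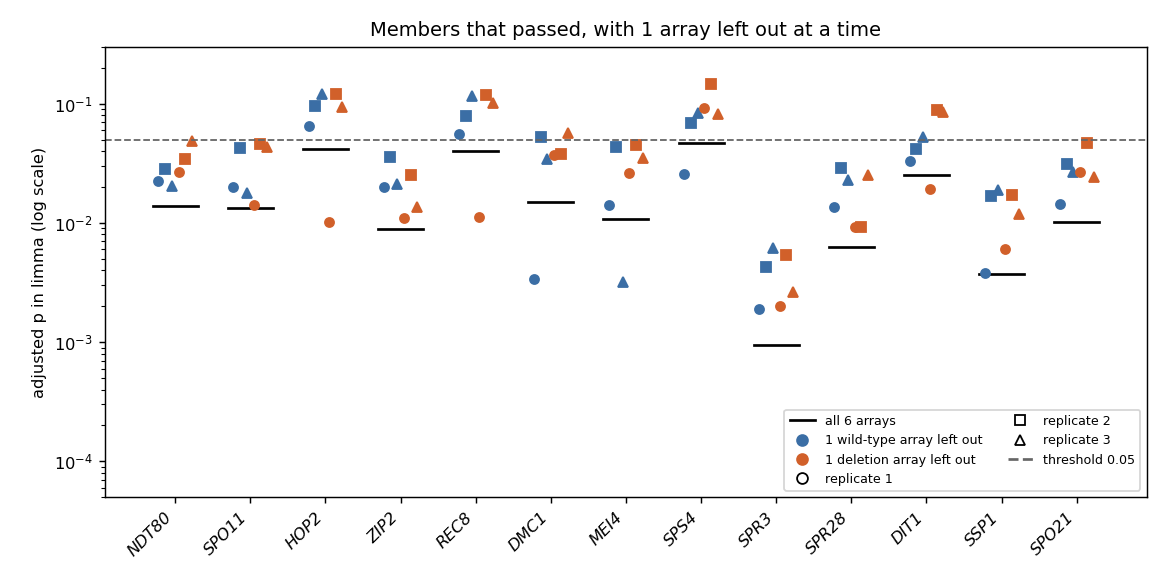
Adjusted p (vertical axis, log scale) of the 13 members that passed, over all 6 arrays (black bar) and with 1 wild-type (blue) or 1 deletion (orange) array left out, the symbol giving the replicate; the dashed line is 0.05. For 8 of the 13 every point lies below the line.

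With 1 array left out at a time, 8 of the 13 members that passed did so each time: NDT80, SPO11, ZIP2, MEI4, SPR3, SPR28, SSP1 and SPO21. After quantile normalization 8 of the 13 passed in the same direction, namely SPO11, ZIP2, MEI4, SPR3, SPR28, SSP1, SPS4 and SPO21. ZIP2 and SPR28, which stand in both lists, were below background on every array. Among the members that did not pass, ZIP1 and SPS1 passed without wild-type replicate 1 (ZIP1 as lower, adjusted p = 0.0445). REC102, REC104 and RED1 passed as higher without wild-type replicate 2 (adjusted p 0.0367 to 0.0455), and REC104 also without deletion replicate 1 (adjusted p = 0.0203). SPO20 did so without deletion replicate 2 (adjusted p = 0.0152) and SPO74 without deletion replicate 3 (adjusted p = 0.0491). With the 3 arrays of high 25S signal left out, 7 members rose and 1, ZIP1, fell (-0.48, adjusted p = 0.0499); the fit then held 1 deletion array, assumed to vary as the wild-type arrays do. SPO20 was among those 7 (0.40, adjusted p = 0.02), beside SPO11, ZIP2, DMC1, SPR3, SPR28 and SSP1, while MEI4 (0.43, adjusted p = 0.0593) and SPO21 (-0.32, adjusted p = 0.0528) missed the threshold there.

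Other genes of meiosis and sporulation, from lists chosen as the 32 were with earlier results of these data known, were read in the same fit. Of 88 that were measured, 22 rose, 5 fell and 61 did not pass, with a median difference of 0.08. Of the 22 that rose, 19 had a group mean above background. The shares of 25% higher and 5.68% lower stand beside 15.8% and 9.82% of all tested probe sets, and beside 24.2% and 7.47% of those in the members' range of levels. Many of the 88 genes lay above that range of 3.81 to 9.34, so the latter shares are not matched to their levels. After quantile normalization 17 rose and 13 fell, beside 12.7% higher and 13.8% lower among all tested probe sets. Falls numbered 8 with replicate number as a block, and 2 or 3 on leaving out wild-type replicate 2 or 3 or any deletion replicate. Of 25 further regulators 5 rose, 2 fell and 18 did not pass, and RME1 and IME4, also counted among the markers, are included here. Those shares, 20% higher and 8% lower, stand beside 15.8% and 9.82% of all tested probe sets. Beside RME1, the gene AMA1, a meiotic activator of the anaphase-promoting complex, rose by 0.50 (SE 0.08, adjusted p = 0.00634) and SPO12, a regulator of exit from division, by 0.47 (SE 0.05, adjusted p = 0.0014). The gene that fell beside IME4 was SUM1, a repressor of middle meiotic genes, with a difference of -0.29 (adjusted p = 0.0219; named after its value was seen). The call of SUM1 was lost without wild-type replicate 2 or 3 and without deletion replicate 2 or 3 (adjusted p 0.0539 to 0.0758). UME6, SIN3 and RPD3, whose products repress early meiotic genes in growing cells, did not pass, at -0.13, -0.02 and -0.02, but UME6 passed as lower after quantile normalization (-0.16, adjusted p = 0.0355).

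Of 28 further genes of recombination and segregation 7 rose, 3 fell and 18 did not pass, and 6 rose and 5 fell after quantile normalization. Before that normalization the shares were 25% higher and 10.7% lower, beside 15.8% and 9.82% of all tested probe sets. After it, 12.7% of all tested probe sets were higher and 13.8% lower. Of the 7 genes that rose before it, 6 had a group mean above background. RDH54, a DNA translocase of strand exchange, read 10.72, 10.70 and 10.63 on the wild-type arrays and 12.63, 12.62 and 12.55 on the deletion arrays, a rise of 1.92 (SE 0.05, adjusted p = 6.96e-07) without overlap. NDJ1, which tethers telomeres in meiotic prophase, rose by 1.41 (SE 0.15, adjusted p = 0.00108). MSH5 and MSH4, which form a pair that stabilises crossovers, rose by 1.22 (SE 0.09, adjusted p = 0.000258) and 0.63 (SE 0.11, adjusted p = 0.00695), and leaving out the 3 arrays with high 25S signal ended the call of MSH4 (0.40, adjusted p = 0.0509). The 3 that fell were HFM1, a crossover helicase, at -0.47, the repair gene RAD52 at -0.20 and MMS4, a nuclease subunit, at -0.26 (named after their values were seen). HFM1 passed with each array left out in turn. RAD52 passed without wild-type replicate 3 and missed the threshold without any other array (adjusted p up to 0.098), and MMS4 passed without wild-type replicate 1 and missed it without any other (up to 0.124).

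Of 35 further spore formation genes 10 rose, none fell at the threshold and 25 did not pass, with a median of 0.18. Of the 10 that rose, 8 had a group mean above background. The share that rose was 28.6%, beside 15.8% of all tested probe sets and 24.2% of those in the members' range of levels. Some of the 35 genes lay above that range, so the latter share is not matched to their levels. After quantile normalization 6 rose and 4 fell, with a median of 0.01, beside 12.7% higher and 13.8% lower among all tested probe sets. Falls numbered 2 with replicate number as a block, 2 without wild-type replicate 1 and 3 without the 3 arrays of high 25S signal, and 6 genes rose without wild-type replicate 2. GSC2, a glucan synthase with a part in the spore wall, read 12.09, 12.01 and 11.98 in wild type and 13.09, 13.28 and 13.27 in the deletion, a rise of 1.19 (SE 0.06, adjusted p = 5.05e-05). ADY2, an acetate transporter, rose by 0.98 (SE 0.17, adjusted p = 0.00721) and SPS19, a peroxisomal enzyme induced in sporulation, by 0.91 (SE 0.10, adjusted p = 0.00126). In the same arrays the summed level of the 4 alpha-cell markers was 15.26 to 15.37, against 10.19 to 10.42 in wild type. The part of the mating-type difference in these rises was not tested.

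**Figure D5:**
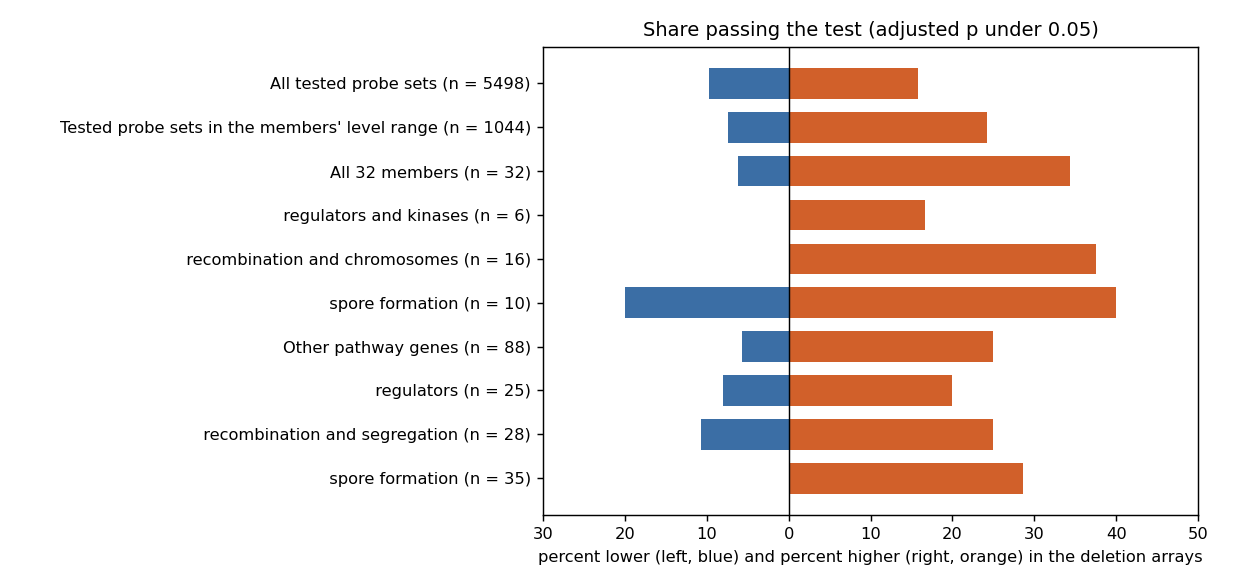
Percent of genes that fell (blue, left) and rose (orange, right) in the deletion arrays for all tested probe sets, for the tested probe sets in the members' range of levels, for the members and for other genes of the pathway, with the number measured in brackets. The members' bar of 34.4% higher stands beside 24.2% for probe sets of their range of levels and 15.8% for all.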

How the data were processed

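Per the submitters' processing notes, the values came from GCOS 1.1, GCRMA and limma, with no version for the latter pair and no order of steps. The authors deposited 1 value per probe set and array, taken as log2 from their range, which is normalized expression on arrays of biotin-labelled, polyadenylated RNA, per the labels. No positions or sequences are printed, because no genome sequence and no probe sequences were at hand. Assembly R64 served for gene names and gene order. Columns of samples outside the series numbered 0.

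Probe sets were named through the platform table and the RefSeq table of assembly R64; controls, S. pombe probe sets and unnamed probe sets were left out of the test. For a gene with several probe sets the brightest over the 6 arrays was used; each of the 32 members had 1. Deletion was compared with wild type in limma 3.58.1 under R 4.3.3 (lmFit and eBayes with group as the 1 term, two-sided) and adjusted by Benjamini-Hochberg over 5498 probe sets. The procedure was tested on simulated data with known differences and independent noise for each probe set. The simulation held no array effect, pairing or shift with level, so it cannot speak to how calls move with scaling, block or arrays. "At least" folds set the wild-type mean against the array backgrounds. The summed level of a marker list is the log2 of the sum of its linear values. Figures were drawn with matplotlib 3.10.9.

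The members and lists were chosen with earlier results of these data known. Every member is described, with up to 4 passing genes of each further list by size of difference, and SUM1, HFM1, RAD52, MMS4, UME6, SIN3, RPD3 and ADY4 were named outside that rule after their values were seen; 4 genes of the further recombination list and 1 marker were not analysed here. Replicate numbers are shared by both groups, and the deviations of same-numbered arrays from their group means correlated at 0.351, 0.213 and 0.112. All 3 lay above 0.1, by which rule the arrays would count as paired. Arrays of unlike number also reached 0.183 (wild-type replicate 2, deletion replicate 3) and 0.161 (wild-type replicate 3, deletion replicate 2). Whether the arrays were paired is therefore not settled. The fit without a block is the one reported, and the block changed the calls of HOP2, REC8, SPS4, ZIP1 and REC104. Alternatives were quantile normalization, median centring, filters, prior settings, the block, arrays left out and a stricter threshold.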

Additional observations from a re-analysis of the deposited data

How the results depend on the processing

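The counts of members and of all tested probe sets moved with scaling, threshold and arrays. After quantile normalization 6 members were higher and 5 lower, in place of 11 and 2. With all probe sets that are not controls in the fit, 1 member was lower, and 566 probe sets were higher and 324 lower, in place of 868 and 540. Without the 3 arrays of high 25S signal, 7 members were higher and 1 lower, and 447 probe sets were higher. At an adjusted p under 0.01 in limma, 4 members were higher and 0 lower (2 lower at 0.05), with 416 probe sets higher and 236 lower. The 4 were SPR3, SSP1, ZIP2 and SPR28, and of these ZIP2 and SPR28 were below background on every array. Leaving out 1 array at a time gave 8 to 12 members higher, 1 to 3 lower, 507 to 874 probe sets higher and 284 to 560 lower; the lowest counts over all probe sets came without deletion replicate 2. With replicate number as a block, 10 members were higher and 2 lower, and 956 and 604 probe sets; the block ended the calls of HOP2, REC8 and SPS4, added ZIP1 and REC104, and changed no other call of a member. Between 19 and 24 members lay above background at the 99th and 90th percentile, in place of 22. The cause of these shifts was not tested.

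Differences that turned sign all belonged to genes that did not pass. After quantile normalization IME2 was at -0.02, ADY4 at -0.01, SPS1 at -0.17, SPO13 at -0.09 and REC114 at -0.15, and the median of the regulators and kinases at -0.04. Without the 3 arrays of high 25S signal IME2 was at -0.01, ADY4 at -0.10 and the median of the further regulators at -0.03; median centring put the latter at -0.01. With 1 array left out, MEK1 ranged from -0.10 to 0.12, SPS1 from -0.04 to 0.25, REC114 from -0.03 to 0.13, SPS2 from -0.10 to 0.02, MFA1 from -0.21 to 0.04, STE6 from -0.08 to 0.02, SIN3 from -0.05 to 0.00 and RPD3 from -0.05 to 0.01. BAR1 and AGA2 passed as lower without wild-type replicate 1 (adjusted p = 0.0297 and 0.0126), AGA2 also under median centring (0.0385) and with replicate number as a block (0.0491), and MFA2 without deletion replicate 1 (adjusted p = 0.0408). Dim probe sets limit the rest: differences of members near the array backgrounds of 5.67 to 5.74 rest partly on background.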

Other observations

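The genes next to the members on the chromosomes, by the gene order of assembly R64, were read in the same fit. Of 20 measured neighbours of the 11 members that rose, 2 rose, 3 fell and 15 did not pass, beside 15.8% higher and 9.82% lower among all tested probe sets. Of 35 measured neighbours of members that did not pass, 8 rose, 2 fell and 25 did not pass. The pair that rose were PDE1, a cAMP phosphodiesterase gene next to ZIP2, with a difference of 1.40 (adjusted p = 0.000306), and RAD9, a checkpoint gene next to SPR28, at 0.26 (adjusted p = 0.0177). AIM17, next to SPO11, fell at -0.67 (adjusted p = 0.00161), EPT1, next to NDT80, at -0.16 (adjusted p = 0.0448) and RMR1, next to ZIP2, at -0.28 (adjusted p = 0.0252). Neither neighbour of SPR3 passed, with PEF1 at 0.04 and ERG25 at -0.04, and the same held for SSP1, with GND1 at 0.03 and PFS1 at 0.01. Some of the counted neighbours were themselves members: DIT1, which rose, and DIT2 stood beside each other, as did SPS1 and SPS2. The neighbours were named after their values were seen. Strand and probe positions were not used here.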
